A study of Mus musculus with 6 samples.

Results

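The Krüppel-like transcription factors described here are 8 genes, Klf2, Klf3, Klf4, Klf6, Klf7, Klf9, Klf10 and Klf13, of the 23494 genes listed in any of the 3 deposited UMI matrices (naïve, NG2 and Tbx18). They were chosen by name, and their counts were summed over the cells of each cluster and library. The cells were tdT+, DAPI-negative cells sorted from mouse cerebral cortex and profiled with 10x Genomics 3' single-cell RNA sequencing, in which each UMI marks 1 captured RNA molecule. One lineage tracing line was NG2-Cre-ERT2/Ai14-flx. The other was Tbx18-CreERT2/Ai14-flx. Each line gave 1 library of naïve cells, 1 after physical injury (an intracerebral injection of saline) and 1 after ischemic injury (the vasoconstrictor ET-1 with L-NAME, an inhibitor of nitric oxide synthesis), taken 3 days after the injection. The mice were 3 to 4 months old and of both sexes, and both lines received tamoxifen, which in the injured groups was given 7 days before injury. Cre activity under the NG2 (Cspg4) or Tbx18 promoter at the time of tamoxifen decided which cells and their progeny could carry tdT. A cluster thus stands for the sorted cells of a type, not for all of its cells. Whether each sorted cell was traced was not tested.

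Krüppel-like factors bind GC-rich and CACCC elements through zinc fingers near the C-terminus, which they share with the SP factors, and differ in the part before them, which recruits coactivators or corepressors. In endothelium, Klf2 and Klf4 are induced by laminar flow through the MEKK3, ERK5 and MEF2 cascade and are known for keeping vessels quiescent. In pericytes and smooth muscle cells Klf4 is known for its part in phenotype switching, Klf6 and Klf10 are early response genes of injury and TGF-beta, and Klf9 is a target of glucocorticoid and thyroid hormone receptors.

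On GRCm38 (GENCODE M21) the members lie on 8 different chromosomes. These are Klf2 (ENSMUSG00000055148, chr8:72319033-72321656, plus strand), Klf3 (ENSMUSG00000029178, chr5:64803388-64832901, plus strand), Klf4 (ENSMUSG00000003032, chr4:55527143-55532466, minus strand), Klf6 (ENSMUSG00000000078, chr13:5861482-5870394, plus strand), Klf7 (ENSMUSG00000025959, chr1:64029447-64122282, minus strand), Klf9 (ENSMUSG00000033863, chr19:23141226-23168134, plus strand), Klf10 (ENSMUSG00000037465, chr15:38291463-38300706, minus strand) and Klf13 (ENSMUSG00000052040, chr7:63886351-63938915, minus strand). All 8 are annotated as protein coding. A RefSeq promoter (GRCm38.p6) was found for 7 members, and Klf10 had no entry.

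The promoters of Klf2, Klf4, Klf6 and Klf9 are shown because these members gave the differences described below, and because flow acts on Klf2 through MEF2. Each run is written 5' to 3' on the strand of the gene and ends before the annotated start. Capitals mark a MEF2 site, TGACG (the core of a cAMP response element) or the GC box GGGCGG, on either strand. The intervals are chr8:72318812-72319032, chr4:55532476-55532725, chr13:5861239-5861481 and chr19:23140976-23141225, in the order of the lines.
Klf2: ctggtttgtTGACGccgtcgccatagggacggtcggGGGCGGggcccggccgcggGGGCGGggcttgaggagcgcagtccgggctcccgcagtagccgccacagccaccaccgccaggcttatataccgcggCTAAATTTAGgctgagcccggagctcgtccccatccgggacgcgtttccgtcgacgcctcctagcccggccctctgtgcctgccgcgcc
Klf4: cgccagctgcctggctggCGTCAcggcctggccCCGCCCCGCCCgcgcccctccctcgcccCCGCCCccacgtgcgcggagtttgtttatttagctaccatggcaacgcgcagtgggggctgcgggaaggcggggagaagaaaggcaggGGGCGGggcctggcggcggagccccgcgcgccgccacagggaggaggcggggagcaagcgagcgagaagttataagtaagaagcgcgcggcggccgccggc
Klf6: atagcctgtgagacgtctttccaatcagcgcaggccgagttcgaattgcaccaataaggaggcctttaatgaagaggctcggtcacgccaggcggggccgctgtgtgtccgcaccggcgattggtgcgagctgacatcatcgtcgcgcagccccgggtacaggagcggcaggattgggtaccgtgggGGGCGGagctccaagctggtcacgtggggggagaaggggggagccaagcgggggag
Klf9: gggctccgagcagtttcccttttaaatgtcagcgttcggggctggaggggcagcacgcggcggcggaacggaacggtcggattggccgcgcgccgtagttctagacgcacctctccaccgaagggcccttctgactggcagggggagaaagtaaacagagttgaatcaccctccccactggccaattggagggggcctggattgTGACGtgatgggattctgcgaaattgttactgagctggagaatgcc

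Both strands of the 250 bases before the RefSeq start were searched for 6 motifs in all 32851 promoters. The MEF2 site was in 2.92% of them and in 1 of the 7 members, Klf2, where it lay 118 to 109 bases before the start. TGACG was in 17.77% of all promoters and in 4 of 7 members (Klf2, Klf4, Klf9 and Klf13). The GC box GGGCGG was in 32.74% of all promoters and in 6 of 7 members, all but Klf9. The CACCC box (CACCC) was in 52.01% of all promoters and in 5 of 7 members, while the TATA box (TATAAA, 12.37%) and the CArG box bound by SRF (1.47%) were in 0 of 7. A match of the MEF2 site or of the CArG box can contain the TATA box. The GC box and the CACCC box can share bases. The members' GC content ranged from 59.2% to 78.4%, above the median of 52.4% over all promoters. A match describes the letters of this window only.

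The 6 libraries held 686 to 4306 cells, with 3153996 to 54276245 UMIs in all and a median of 2806 to 9232 UMIs per cell. Each library pooled the cells of several animals and there was 1 library per line and condition, so no difference between conditions could be tested against animals or libraries. Levels are given as counts per 1000000 UMIs of the same cells (CPM), with exact Poisson 95% intervals in parentheses. Ratios are on the log2 scale with exact binomial (Clopper-Pearson) 95% intervals, where a value of 1 means 2-fold higher. These intervals cover counting error only. A gene was tested where its higher sum reached 20 CPM and both sums had 20 cells, and was called where the sums differed 2-fold. Beside a call of members, the share of all genes is of those called in the same direction. Beside no call it is of those called either way. Within a line, both injured libraries were compared with the same naïve library. In the NG2 and Tbx18 matrices, cluster names are those of the study's annotation, and their markers were checked. For example, the endothelial gene Cldn5 was at 4212 to 5062 CPM in NG2 and 3070.04 to 4939 CPM in Tbx18 endothelial cells. The pericyte gene Vtn was at 17320.3 to 18706 CPM in NG2 activated pericytes. Libraries shared 0 to 5 cell barcodes per pair, 30 over 15 pairs. Because the clusters were formed on expression, differences between clusters are descriptions.

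Klf2 and Klf4 were highest in endothelial cells in both lines, and within endothelial cells both had lower CPM in the injured libraries than in the naïve one, by less than 2-fold. In NG2 endothelial cells (101, 404 and 453 cells in the naïve, physical injury and ischemic injury libraries, with medians of 5720, 7522.5 and 8622 UMIs), Klf2 was at 6214 CPM (6022 to 6411) in the naïve library, 3797 CPM (3735 to 3861) after physical injury and 3225 CPM (3174 to 3276) after ischemic injury. The 3 intervals did not overlap. The log2 ratio to naïve was -0.71 (-0.76 to -0.66) after physical and -0.95 (-0.997 to -0.90) after ischemic injury, which is 1.64-fold and 1.93-fold lower. Klf4, which shares many endothelial targets with Klf2, was at 2753 CPM (2626 to 2885) in the naïve library, 1962 CPM (1917 to 2008) after physical injury and 1745 CPM (1708 to 1783) after ischemic injury. The order of the 3 libraries was that of Klf2, with log2 ratios to naïve of -0.49 (-0.56 to -0.41) and -0.66 (-0.73 to -0.58). For Klf4 the order of the injured libraries did not hold in thinned cells (0.01 for ischemic over physical injury) or as a mean over cells (0.05).

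**Figure D1:**
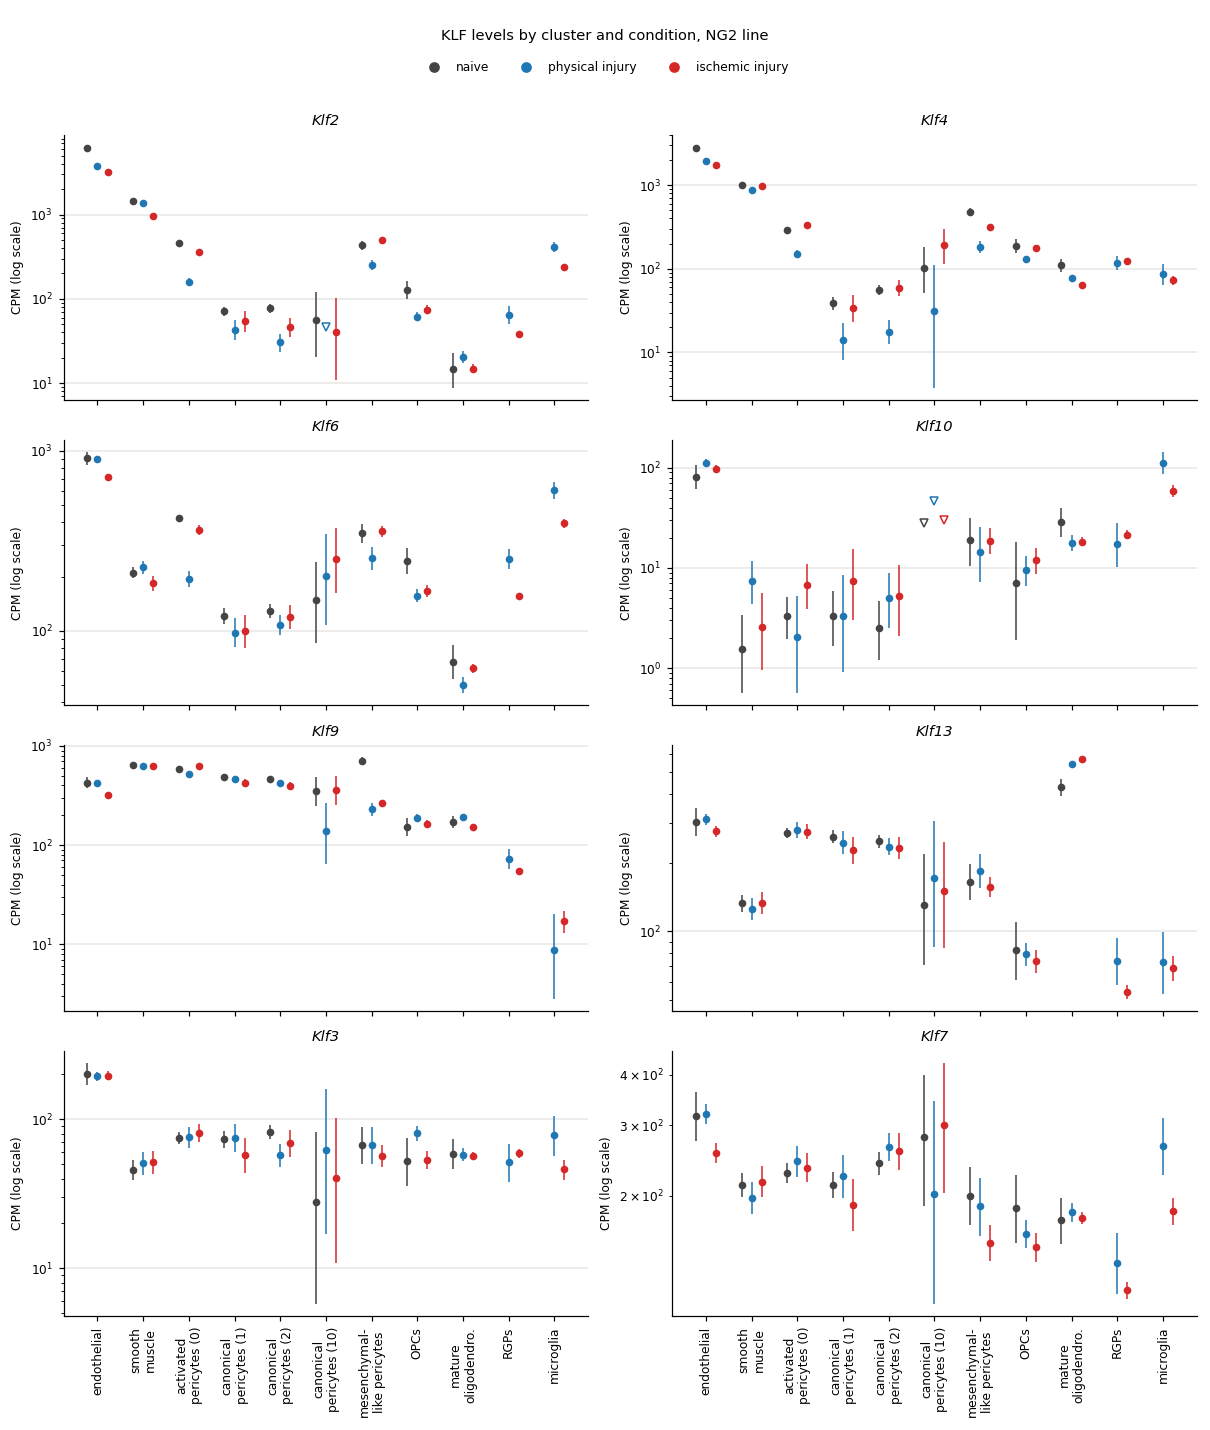
Level (CPM, log axis) of each of the 8 members in the NG2 clusters (horizontal), with 1 point per condition and vertical 95% Poisson intervals; an open triangle marks 0 counts, drawn at the level of 3 counts. Klf2 and Klf4 peak in endothelial cells, at 6214 and 2753 CPM in the naïve library, while Klf7 spans 116 to 321 CPM over all sums.

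In Tbx18 endothelial cells (159, 1788 and 1488 cells, medians of 2600, 6701.5 and 8981 UMIs) the order of the libraries was the same and the differences were smaller. Klf2 was at 5466 CPM (5299 to 5637) in the naïve library, 4739 CPM (4701 to 4778) after physical injury and 4320.2 CPM (4286 to 4355) after ischemic injury. Its log2 ratio to naïve was -0.21 (-0.25 to -0.16) after physical and -0.34 (-0.39 to -0.29) after ischemic injury. Klf4 was at 2861 CPM in the naïve library, 2603 CPM after physical injury and 2449 CPM after ischemic injury, with log2 ratios to naïve of -0.14 (-0.20 to -0.07) and -0.22 (-0.29 to -0.16). For Klf4 this direction did not hold when every cell was thinned to 1000 UMIs, where the ratios were 0.07 and 0.00.

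None of the members tested was called in endothelial cells of either line. In NG2 endothelial cells 0 of 8 members differed 2-fold from naïve after physical injury, where 4.78% of all genes did, and 0 of 8 after ischemic injury, where 5.42% did. In Tbx18 endothelial cells the counts were again 0 of 8 in both comparisons, against 8.17% and 8.14% of all genes. After ischemic injury the median log2 ratio of the members was -0.33, and that of all genes tested was -0.05 in the NG2 line. That median of the members was -0.124 with TMM factors, -0.124 in thinned cells and -0.104 as a mean over cells. Between the injured libraries 0 of 8 was called in either line, against 1.62% (NG2) and 0.352% (Tbx18) of all genes. In the Tbx18 line the medians for ischemic injury over naïve were -0.34 and -0.02, the former becoming -0.181 in thinned cells and -0.112 as a mean over cells. TMM scaling shifted all log2 ratios to naïve up by 0.12 (physical injury) and 0.20 (ischemic injury) in NG2 and by 0.11 and 0.10 in Tbx18 endothelial cells, less than the size of the Klf2 ratios.

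Markers of other cells moved with the endothelial comparison. The summed level of the pericyte list was 5474, 3726 and 3312 CPM in the naïve, physical and ischemic injury libraries of NG2 endothelial cells (8 of 8 list genes in each library with at least 3 counts) and 3915, 359 and 105 CPM in Tbx18 endothelial cells (8 of 8 list genes in each library). The red blood cell list stood at 701, 8820.4 and 10312 CPM in the NG2 line and at 35.1, 4140.1 and 4142 CPM in the Tbx18 line. The immediate early and stress list was at 36828, 32157 and 27506 CPM and 40505, 34303 and 34125 CPM in the NG2 and Tbx18 lines. The endothelial list itself was at 15412, 15804 and 14451 CPM and 14386, 17133 and 17156 CPM. With cells that had over 1% of their UMIs in a list of pericytes, smooth muscle cells or red blood cells left out, the NG2 log2 ratios of Klf2 were -0.72 and -0.98. The Tbx18 ratios of Klf2, which then rested on 94 of 159 naïve cells, were -0.32 and -0.46.

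Shares of cells with a UMI were compared after thinning each cell to 1000 UMIs, which left out 1, 3 and 5 shallower NG2 endothelial cells. In these, Klf2 had a UMI in 93%, 88.5% and 86.2% of NG2 endothelial cells, in the order naïve, physical and ischemic injury. In mature oligodendrocytes of the same libraries, a type not known for Klf2, the thinned shares were 1.01%, 1.37% and 1.05%. Without thinning the shares were 96.0%, 98.3% and 98.5% of endothelial cells, and 6.80%, 10.5% and 14.5% of oligodendrocytes, whose median depth was 13252, 23779 and 29600.5 UMIs. The endothelial shares lay far above the oligodendrocyte ones in every library, and the unthinned shares did not follow the order of the CPM. Klf4 had a UMI in 80%, 69.6% and 69.9% of thinned NG2 endothelial cells. Both genes were seen together in 79%, 64.3% and 63.6%, where the product of the single shares was 74.4%, 61.6% and 60.2%. In Tbx18 endothelial cells Klf2 had a UMI in 92.0%, 88.9% and 89.0% of cells thinned to 1000 UMIs, which left out 22, 53 and 10 cells. At 500 UMIs the shares were 74.7%, 76.9% and 75.9%, and without thinning 93.7%, 95.6% and 98.4%. These Tbx18 shares did not follow the order of the CPM in full at any depth.

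**Figure D2:**
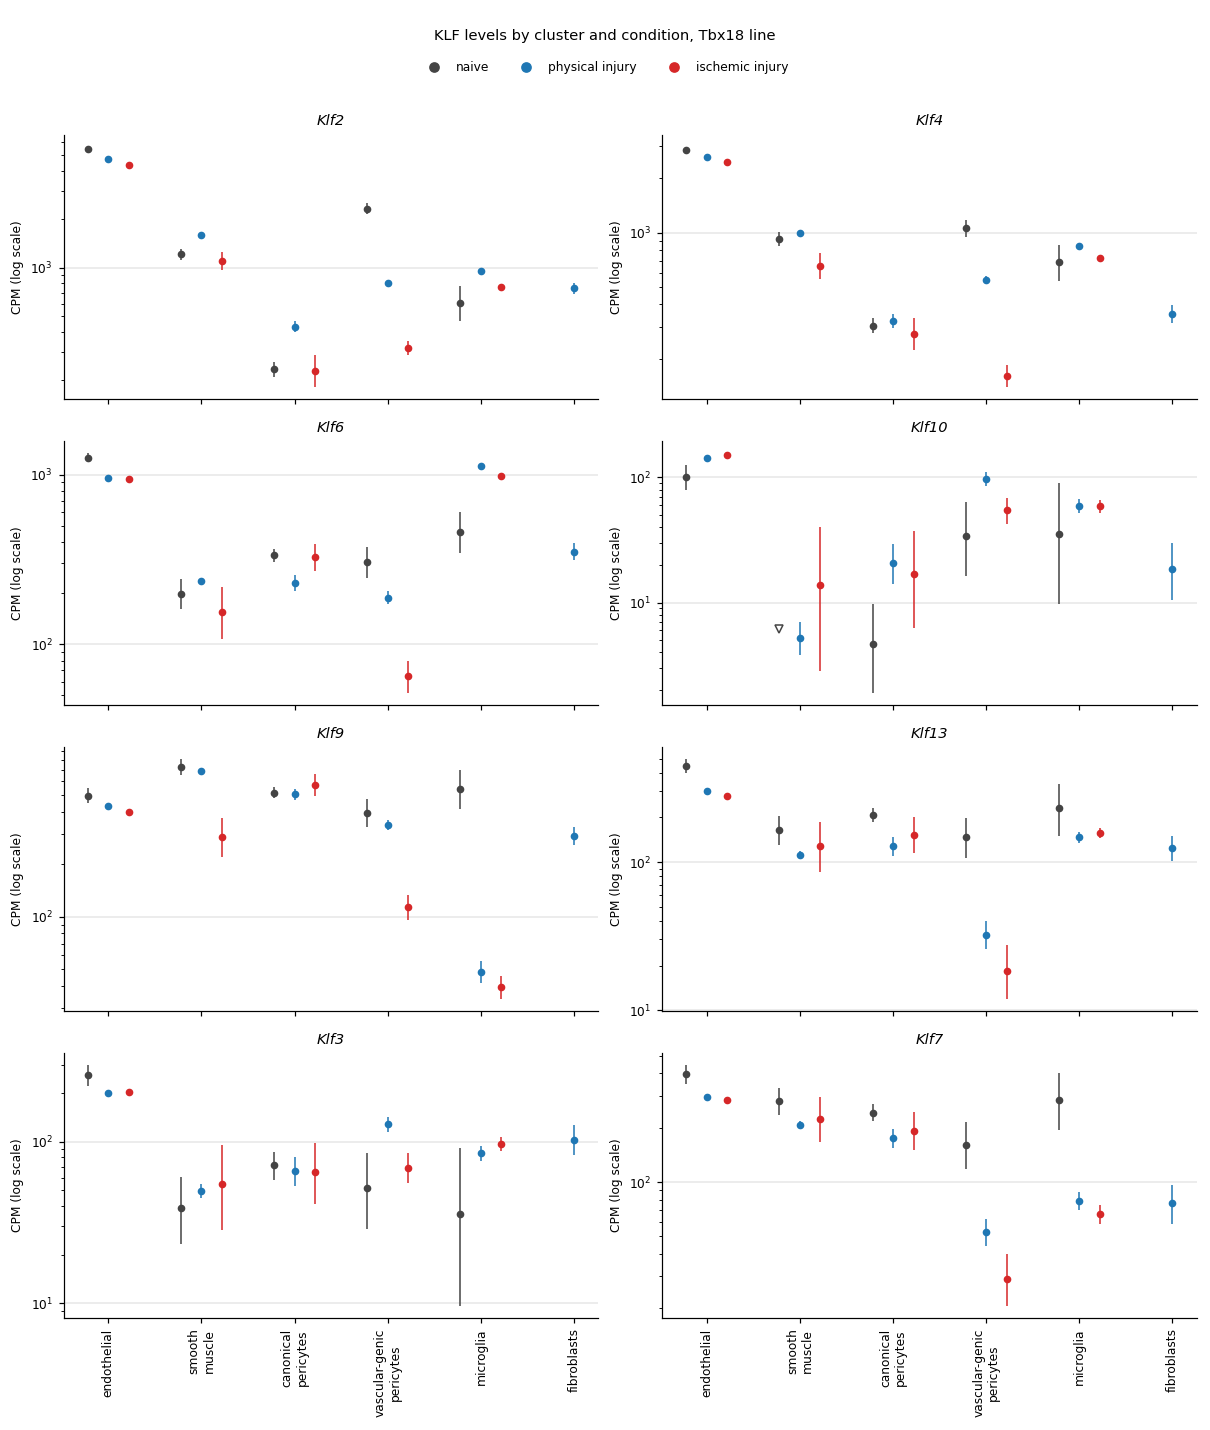
Level (CPM, log axis) of each of the 8 members in the Tbx18 clusters (horizontal), with 1 point per condition and vertical 95% Poisson intervals; an open triangle marks 0 counts, drawn at the level of 3 counts. Klf2 in endothelial cells goes from 5466 CPM in the naïve library to 4739 and 4320 CPM in the injured libraries.

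Of the other members in endothelial cells, Klf10 had higher CPM in the injured libraries and the rest were level or lower. Klf6, a factor induced by vascular injury, was at 908, 904 and 718 CPM in the naïve, physical injury and ischemic injury libraries of the NG2 line and at 1259, 955 and 944 CPM in the Tbx18 line. Klf10, known as an early TGF-beta response gene, went the other way, with 81.5, 112 and 96.6 CPM in the NG2 and 101, 144 and 151 CPM in the Tbx18 line. Its log2 ratio to naïve was 0.46 (0.04 to 0.90) after physical and 0.24 (-0.17 to 0.69) after ischemic injury in NG2 endothelial cells, the latter with an interval that includes 0. It was 0.51 (0.18 to 0.86) and 0.58 (0.24 to 0.93) after physical and ischemic injury in Tbx18 endothelial cells. Klf9 was at 428, 426 and 318 CPM and 498, 430.4 and 399 CPM. The NG2 ratio of Klf9 after ischemic injury, -0.43 (-0.62 to -0.24), was 0.00 in cells thinned to 1000 UMIs.

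Klf3, a repressor that acts through CtBP, was at 202, 194 and 197 CPM in NG2 and 258, 200.5 and 203 CPM in Tbx18 endothelial cells, and the naïve endothelial sum was its highest in each line. Klf7 was at 317, 321 and 255 CPM and 395, 294 and 285 CPM. Klf13 was at 303, 311 and 275 CPM in the NG2 line, where the 3 libraries lay close together, and at 445, 301 and 278 CPM in the Tbx18 line, with log2 ratios to naïve of -0.57 (-0.73 to -0.40) and -0.68 (-0.84 to -0.51).

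Genes known from textbook knowledge to be induced by Klf2 and Klf4 in endothelium mostly did not differ 2-fold. Some genes known to be repressed by them did. The part of Klf2 and Klf4 in the levels of either list was not tested. Of 10 induced genes 9 were tested. In the NG2 line 0 of 9 was 2-fold lower after physical injury and 1 of 9 after ischemic injury, Timp3, an inhibitor of metalloproteinases, with a log2 ratio of -1.48 (-1.59 to -1.36). The next of the 4 highest genes were Slc9a3r2 at -0.89 (-1.02 to -0.76), Tek at -0.39 (-0.59 to -0.19) and Plat, the tissue plasminogen activator, at 0.52 (0.32 to 0.73). In the Tbx18 line 1 of 9 was lower after physical injury, Thbd (thrombomodulin) at -1.11 (-1.32 to -0.90). After ischemic injury 2 of 9 were, Thbd at -1.13 (-1.33 to -0.92) and Ptgds, a prostaglandin synthase, at -3.60 (-4.40 to -2.78). Thbd and Ptgds were named after their values were seen. The list medians were 0.08 and -0.05 in the NG2 line and -0.23 and -0.31 in the Tbx18 line. Of all genes in these comparisons, 4.78% and 5.42% (NG2) and 8.17% and 8.14% (Tbx18) differed 2-fold either way.

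Of 8 genes known to be repressed, 3 or 4 reached the level for testing. Icam1, a leukocyte adhesion molecule, was higher in all 4 comparisons with naïve, with log2 ratios of 2.39 (1.85 to 2.97) after physical and 1.93 (1.40 to 2.52) after ischemic injury in the NG2 line and 1.67 (1.28 to 2.10) and 2.21 (1.82 to 2.62) in the Tbx18 line. Its level in NG2 endothelial cells was 45.5 CPM in the naïve and 238 CPM in the physical injury library. Vcam1, which binds leukocyte integrins, had ratios of 1.35 (0.92 to 1.81) and 0.65 (0.22 to 1.11) in the NG2 line and 0.96 (0.58 to 1.37) and 1.81 (1.43 to 2.21) in the Tbx18 line. Angpt2, a ligand of Tek, had -0.71 (-1.51 to 0.16) and 1.14 (0.44 to 1.94) in the NG2 line, and 2.35 (0.98 to 4.24) after ischemic injury in the Tbx18 line. In total 2 of 4 genes were called higher after each injury in the NG2 line. In the Tbx18 line 1 of 3 was after physical and 3 of 4 were after ischemic injury. There Angpt2 reached the level for testing only through the ischemic library (5.39 CPM in naïve and 27.5 CPM in ischemic cells). Of all genes tested, 196 of 7322 and 202 of 7255 were higher in the NG2 line. In the Tbx18 line 148 of 7357 and 178 of 7373 were. Edn1 was not called, with 0.12 (-0.14 to 0.38) and 0.45 (0.21 to 0.69) after physical injury in the NG2 and Tbx18 lines.

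In the RNA of the flow cascade above Klf2 and Klf4, no tested gene differed 2-fold. Of 14 listed genes 13 were tested in endothelial cells and 0 of 13 was called in each of the 4 comparisons with naïve. Of all genes, 4.78% and 5.42% (NG2) and 8.17% and 8.14% (Tbx18) were called, so 0 of 13 lies near these shares. The activity of the cascade was not tested. The list medians were -0.06 and -0.09 in the NG2 line and -0.08 and 0.07 in the Tbx18 line. Its 4 highest genes were Pecam1, Kdr, Cdh5 and Mef2a, with NG2 ischemic injury to naïve ratios of 0.26 (0.10 to 0.42), -0.22 (-0.38 to -0.06), 0.05 (-0.12 to 0.22) and 0.10 (-0.12 to 0.33).

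**Figure D3:**
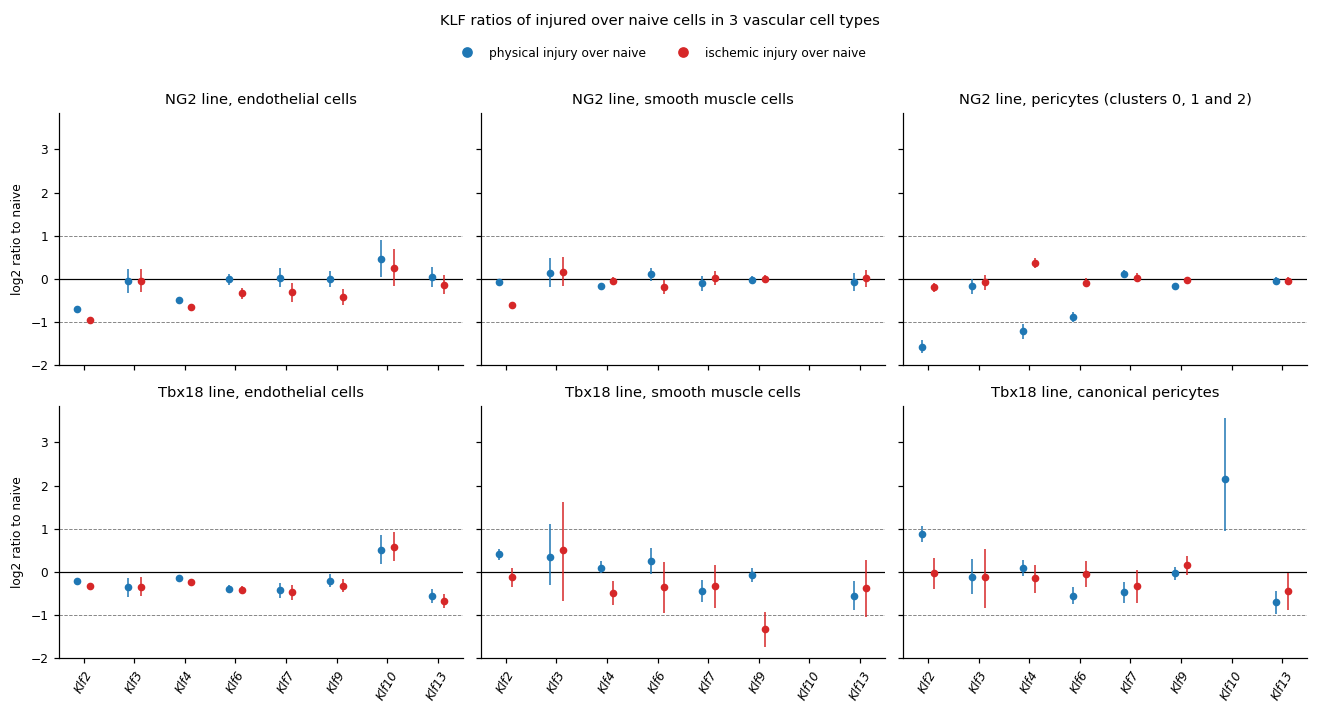
Log2 ratios of each member, injured over naïve, in endothelial cells, smooth muscle cells and pericytes of both lines, with 95% binomial intervals; dashed lines mark a 2-fold difference, and members below 20 CPM in both sums are not drawn. Klf2 stands at -1.57 in NG2 pericytes (clusters 0, 1 and 2) and at 0.88 in Tbx18 canonical pericytes after physical injury.

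In smooth muscle cells Klf2 and Klf4 were second to endothelial cells in the NG2 line, and the 2 lines stood in opposite order for Klf2 after physical injury. In the NG2 line (503, 242 and 277 cells) Klf2 was at 1457 CPM (1419 to 1495) in the naïve library, 1376 CPM (1330.04 to 1424) after physical injury and 951 CPM (911 to 991) after ischemic injury. The ischemic library was the low one, with a log2 ratio to naïve of -0.62 (-0.69 to -0.54), whereas after physical injury it was -0.08 (-0.14 to -0.02), a direction lost (0.00) when the filters of the study's methods were applied again. Klf4, a repressor of the contractile phenotype in this cell type, was at 993 CPM in the naïve library, 881 CPM after physical injury and 966 CPM after ischemic injury. Klf9 stayed within 629 to 640.3 CPM. Of 7 members tested 0 was called in either comparison, against 0.666% and 0.712% of all genes after physical and ischemic injury. Between the injured libraries 0 of 7 was called against 0.884%, with Klf2 at -0.53 (-0.61 to -0.46) and Klf4 at 0.13 (0.05 to 0.22) for ischemic over physical injury.

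In Tbx18 smooth muscle cells (63, 827 and 47 cells) Klf2 was at 1208 CPM (1113 to 1309) in the naïve library, 1599 CPM (1573 to 1626) after physical injury and 1103 CPM (968 to 1252) after ischemic injury. Here the physical injury library was the high one, with a log2 ratio to naïve of 0.40 (0.29 to 0.53), and the intervals of the other 2 libraries overlapped. In cells thinned to 1000 UMIs, however, a Klf2 UMI was found in 48.4% of 62 naïve cells. The share was 64.2% of 827 cells after physical injury and 17.5% of 40 cells after ischemic injury, with 1, 0 and 7 shallower cells left out in the 3 libraries. Without thinning the shares were 84.1%, 93.5% and 36.2%, at median depths of 7834, 10561 and 2831 UMIs, so 17 of the 47 ischemic cells held all Klf2 counts of that sum. Klf4 was at 922 CPM in the naïve library, 989 CPM after physical injury and 655 CPM after ischemic injury. Klf9 was at 726 CPM (653 to 806) in the naïve library, 691 CPM (673 to 708) after physical injury and 288 CPM (222 to 369) after ischemic injury. Its ratio of -1.33 (-1.74 to -0.94) after ischemic injury was the 1 call of 7 members, against 9.5% of all genes lower by 2-fold. Of 7444 genes tested, 707 were lower and 787 higher, so 1 of 7 does not exceed the share called either way. Of the glucocorticoid and thyroid hormone list that goes with Klf9, 2 genes were higher and 2 lower of 12 tested after ischemic injury. The 0 of 7 called after physical injury stand against 12.6% of all genes. Ischemic over physical injury, Klf9 was again the 1 call of 7, at -1.26 (-1.64 to -0.90) against 4.41%. Of 7034 genes tested, 310 were lower and 743 higher, so 1 of 7 again lies near the share called either way. Klf2 was at -0.54 (-0.73 to -0.35) and Klf4 at -0.59 (-0.84 to -0.36). TMM scaling moved all log2 ratios of physical injury over naïve by 0.34 and of ischemic over physical injury by -0.37. The immediate early list moved with these libraries, at 43760.2, 37571 and 18753 CPM, as did the smooth muscle list at 22458, 36340.1 and 29347 CPM, the pericyte list at 8208, 2755 and 8456 CPM (8 of 8, 7 of 8 and 7 of 8 list genes with at least 3 counts) and the endothelial list at 69.4, 182 and 1089.6 CPM (3 of 7, 7 of 7 and 7 of 7 list genes). Their part in the result was not tested.

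In NG2 pericytes Klf2, Klf4 and Klf6 were higher in the activated cluster than in canonical clusters 1 and 2 in every library. For Klf6 this difference was less than 2-fold after physical injury. Klf2 and Klf4 were lower after physical injury than in the naïve library. In activated pericytes (cluster 0; 1280, 381 and 503 cells) Klf2 was at 458 CPM (440.04 to 476) in the naïve library, 160.05 CPM (143 to 179) after physical injury and 363 CPM (339 to 388) after ischemic injury. In canonical pericytes (clusters 1 and 2; 1963, 725 and 582 cells) it was at 74.4 CPM in the naïve library, 34.9 CPM after physical injury and 49.5 CPM after ischemic injury. The activated cluster was thus 6.15-fold, 4.58-fold and 7.33-fold higher in the 3 libraries. Klf4 was at 292, 151 and 338 CPM in activated and 47.9, 16.4 and 49.1 CPM in canonical pericytes, and Klf6 at 424, 193 and 362 CPM and 125, 104 and 111 CPM. Klf9, Klf13 and Klf7 differed less between the clusters, with naïve log2 ratios of 0.32 (0.25 to 0.39), 0.10 (0.00 to 0.20) and 0.00 (-0.11 to 0.11).

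Of 7 members tested, 3, 2 and 3 were 2-fold higher in activated than in canonical pericytes of the naïve, physical injury and ischemic injury libraries, where 0.596%, 0.639% and 0.882% of all genes were. The clusters were built with these genes, so nothing is read from those counts. Of the immediate early and stress list, 15 of 16, 15 of 16 and 16 of 17 genes were higher in the activated cluster. This list stood at 44710.4, 22124 and 39432 CPM in activated pericytes of the 3 libraries, at 11202, 4757 and 6039.6 CPM in cluster 1 and at 10549, 5948 and 8401 CPM in cluster 2. The cluster with more Klf2, Klf4 and Klf6 was thus also the one with more early response transcripts, whose part in the result was not tested.

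**Figure D4:**
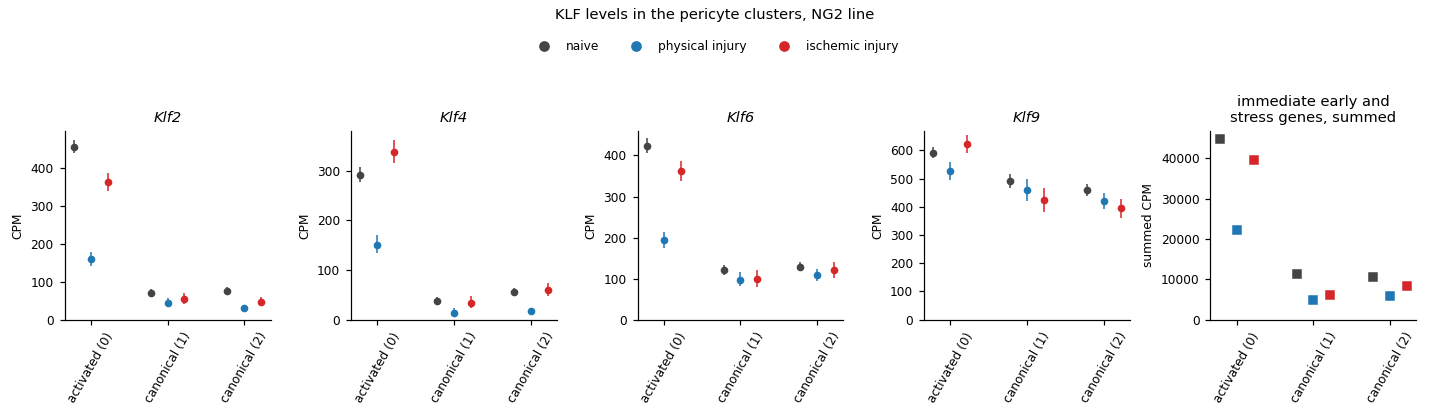
Level (CPM, linear axis from 0) of Klf2, Klf4, Klf6 and Klf9, and the summed level of the immediate early and stress list, in NG2 activated pericytes (cluster 0) and canonical pericytes (clusters 1 and 2) by condition, with 95% Poisson intervals on the genes. Klf2 in cluster 0 is at 458, 160 and 363 CPM in the naïve, physical injury and ischemic injury libraries, and Klf9 at 592, 527 and 622 CPM.

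Over the 3 pericyte clusters together (3243, 1106 and 1085 cells), Klf2 was at 239 CPM (231 to 248) in the naïve library, 80.4 CPM (73.0 to 88.4) after physical injury and 209 CPM (196 to 222) after ischemic injury. The physical injury library was the low one, 2.97-fold below naïve, with a log2 ratio of -1.57 (-1.72 to -1.42), while the ischemic library gave -0.19 (-0.30 to -0.09). Klf4 was at 153 CPM (146 to 159.6) in the naïve library, 65.5 CPM (58.8 to 72.7) after physical injury and 196 CPM (183 to 209) after ischemic injury. It was 2.33-fold lower after physical injury, -1.22 (-1.39 to -1.06), and higher after ischemic injury, 0.36 (0.25 to 0.47), though cluster 1 alone gave -0.18 for the latter. Klf6 was at 254 CPM in the naïve library, 137 CPM after physical injury and 239 CPM after ischemic injury, with a ratio of -0.89 (-1.01 to -0.77) after physical injury. Between the injured libraries, ischemic over physical, the ratios were 1.38 (1.21 to 1.54) for Klf2, 1.58 (1.40 to 1.76) for Klf4 and 0.80 (0.67 to 0.94) for Klf6. For Klf2 this ratio was 0.34 in cluster 1 alone and 0.60 in cluster 2 alone. The activated cluster, where these members were higher, held 5491985 of the 12800521 naïve UMIs in this sum. It held 1949411 of 5358065 UMIs after physical and 2358210 of 4638816 after ischemic injury. The pooled ratios include this difference in make-up, whose part was not tested.

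Of 7 members tested in these pericytes, 2 (Klf2 and Klf4) were 2-fold lower after physical injury than in naïve cells, against 0.303% of all genes, and the median log2 ratio of the members was -0.17, and that of all genes tested was -0.02. After ischemic injury 0 of 7 was called against 0.597% of all genes. Comparing ischemic with physical injury, 2 of 7 were higher against 0.729%, in a comparison that shares the physical injury library with the first. The call of Klf4 after physical injury was not kept in cells thinned to 1000 UMIs (-0.86) or in cluster 0 alone (-0.95), and that of Klf2 not in cluster 1 alone (-0.73). The Klf2 call of ischemic over physical injury was not kept in cluster 1 or cluster 2 alone. Klf9, Klf7, Klf3 and Klf13 had log2 ratios of -0.17 (-0.23 to -0.10), 0.12 (0.03 to 0.22), -0.17 (-0.35 to 0.00) and -0.04 (-0.14 to 0.05) after physical injury. The Klf3 ratio was 0.01 and 0.04 in clusters 0 and 1 alone.

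The early response list was lower in the same library. Of 16 genes tested 10 were 2-fold lower after physical injury, with a list median of -1.16, and 0 of 16 was called after ischemic injury, with a median of 0.27. Jun was at -1.41 (-1.44 to -1.39), Fos at -1.28 (-1.30 to -1.25), Jund at -1.14 (-1.17 to -1.10) and the heat shock gene Hspa1a at -0.62 (-0.65 to -0.59) after physical injury. Klf2 and Klf4 are themselves early response genes, and the part of this list's difference in theirs was not tested. Leaving out cells with over 1% of their UMIs in the endothelial, red blood cell or microglial lists removed 0 of these pericytes, and the Klf2 ratio was -1.57.

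Thinned to 1000 UMIs, Klf2 had a UMI in 26.6%, 11.5% and 22.1% of activated pericytes in the naïve, physical injury and ischemic injury libraries, and Klf4 in 19.4%, 11.8% and 22.7%. Without thinning, the Klf2 shares were 49.8%, 32.5% and 48.3%, at median depths of 4122.5, 4944 and 4547 UMIs. In thinned oligodendrocytes the shares were 1.01% to 1.37% for Klf2, and 3.03%, 5.82% and 5.59% for Klf4, below those of activated pericytes in each library. Both genes were found together in 6.89%, 2.62% and 6.37% of thinned cells, where the product of the shares was 5.17%, 1.36% and 5.02%. In the small cluster 10, also named canonical pericytes (44, 23 and 43 cells), Klf2 had 6, 0 and 4 counts. At this depth 3 counts equal 46.6 CPM in the physical injury library, so a level up to that was not detectable there.

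Tbx18 canonical pericytes (226, 433 and 86 cells) stood in another order for Klf2. It was at 234 CPM (210.1 to 259.9) in the naïve library, 430.4 CPM (398 to 465) after physical injury and 229.9 CPM (183 to 286) after ischemic injury. The physical injury library was the high one, 1.84-fold above naïve, with a log2 ratio of 0.88 (0.69 to 1.07), and the ischemic library was level with naïve at -0.03 (-0.39 to 0.33). Klf4 was at 305 CPM in the naïve library, 325 CPM after physical injury and 275 CPM after ischemic injury and Klf6 at 336 CPM in the naïve library, 229 CPM after physical injury and 326 CPM after ischemic injury. The share of cells with a Klf2 UMI did not follow the CPM. It was 15.7%, 16.8% and 12% in cells thinned to 1000 UMIs, which left out 3, 81 and 11 cells, and 37.6%, 27.0% and 33.7% without thinning, at median depths of 6547.5, 2540 and 3791.5 UMIs. Klf10 had 7, 31 and 6 counts in the 3 libraries. Its ratio of 2.15 (0.94 to 3.58) was the 1 call of 8 members after physical injury, against 7.54% of all genes higher by 2-fold. Of 7762 genes tested, 585 were higher and 338 lower, so 1 of 8 lies near the share called either way. Klf10 reached the level for testing only through that library, and the call was lost in thinned cells (0.93). After ischemic injury 0 of 7 was called against 16.4%. Ischemic over physical injury the Klf2 ratio was -0.90 (-1.26 to -0.57), and 0 of 8 was called against 9.12%.

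These Tbx18 pericyte sums differed in the cells they held. The smooth muscle list was at 1584, 5576 and 2594 CPM (5 of 6, 6 of 6 and 5 of 6 list genes with at least 3 counts), Acta2 alone at 96.8, 1615 and 573 CPM, and the endothelial list at 170.1, 910.1 and 1297 CPM (6 of 7, 7 of 7 and 7 of 7 list genes). The pericyte list was at 31057, 20052 and 19249.5 CPM. With cells over 1% in endothelial, red blood cell or microglial lists left out the Klf2 ratio after physical injury was 0.59, and with smooth muscle list cells left out as well it was 0.44, on 344 of 433 cells. The ratio was thus smaller without these cells and kept its sign. Their further part in the result was not tested.

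In mesenchymal-like pericytes of the NG2 line (177, 81 and 240 cells) Klf9 was more than 2-fold lower in CPM after both injuries. Klf9, a glucocorticoid and thyroid hormone target, was at 706 CPM (647 to 769) in the naïve library, 230.4 CPM (198 to 267) after physical injury and 265 CPM (245 to 286) after ischemic injury. The naïve level was the highest of the 31 NG2 sums, but less than 2-fold above the smooth muscle and activated pericyte levels given earlier. Both injured libraries lay below this naïve level without overlap, with log2 ratios of -1.62 (-1.87 to -1.37) and -1.42 (-1.58 to -1.25). Klf4 was at 480.2 CPM in the naïve library, 184 CPM after physical injury and 316 CPM after ischemic injury and Klf2 at 430.1 CPM in the naïve library, 251 CPM after physical injury and 504 CPM after ischemic injury. After physical injury 2 of 7 members were called lower, Klf9 and Klf4, the latter at -1.38 (-1.67 to -1.10), against 7.65% of all genes. After ischemic injury it was 1 of 7, Klf9, against 10.5%. Of 7582 genes tested after physical injury, 580 were lower and 442 higher. After ischemic injury 797 of 7555 were lower and 509 higher, so 1 of 7 lies near the share called either way. In thinned cells the ischemic ratio of Klf9 was -0.99. Between the injured libraries 1 of 7, Klf2 at 1.002 (0.78 to 1.23), was called higher after ischemic injury, against 1.77%. Of 7157 genes tested, 127 were higher and 205 lower. The call lay at the threshold and was lost in thinned cells (0.993) and with a pseudocount of 1 CPM (0.999).

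TMM scaling moved all ratios to naïve of this cluster by 0.18 and 0.32, less than the Klf9 ratios. Of 10 glucocorticoid- and thyroid hormone-responsive genes tested in this cluster, 4 were 2-fold lower after physical injury (median -0.73), and 7 were lower and 2 higher after ischemic injury (median -1.11). Of 17 immediate early and stress genes 11 and 10 were lower, and 1 was higher after ischemic injury, while the summed list was at 42271, 14706 and 19537 CPM. The smooth muscle list was at 2527, 5673 and 3345 CPM (5 of 6 list genes in each library with at least 3 counts). Ribosomal protein genes held 4.39%, 7.91% and 10.5% of UMIs, at median depths of 4026, 7733 and 8444 UMIs. Far fewer genes were called in NG2 pericytes of clusters 0, 1 and 2. There 22 of 7250 were lower and 12 higher after physical injury, and 5 of 7201 lower and 38 higher after ischemic injury. The part of these in the Klf9 difference was not tested, nor was whether the naïve and injured sums of this cluster held like cells.

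Klf13 had its highest NG2 levels in mature oligodendrocytes (103, 294 and 592 cells), a cell type in which it takes part in myelin gene expression. It was at 429 CPM (395 to 467) in the naïve library, 543 CPM (526 to 560.3) after physical injury and 571 CPM (559.9 to 582) after ischemic injury, with log2 ratios to naïve of 0.34 (0.21 to 0.47) and 0.41 (0.29 to 0.54). Both injured libraries lay above the naïve one by less than 2-fold. Klf4 was at 110.05 CPM in the naïve library, 77.9 CPM after physical injury and 63.9 CPM after ischemic injury, but thinning every cell to 1000 UMIs turned its log2 ratios to 0.76 and 0.72. Klf2 was at 14.5, 20.4 and 14.8 CPM. After physical injury 0 of 8 members was called against 2.15% of all genes, and after ischemic injury 0 of 7 against 6.34%.

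In OPCs, the oligodendrocyte precursors (100, 301 and 294 cells), Klf2 was at 128 CPM (101 to 161) in the naïve library, 61.6 CPM (53.9 to 69.99) after physical injury and 74.4 CPM (66.2 to 83.4) after ischemic injury. Its log2 ratio after physical injury, -1.06 (-1.44 to -0.66), was the 1 call of 7 members, against 2.94% of all genes lower by 2-fold. Of 8341 genes tested, 245 were lower and 196 higher. The pericyte list in the same OPC sums was at 1859.8, 249 and 301 CPM (8 of 8 list genes in each library with at least 3 counts), also highest in the naïve library, and its part was not tested. With the methods' filters applied again the ratio was -0.05, and TMM scaling, which moved all ratios by 0.10, left it at -0.96. After ischemic injury it was -0.79 (-1.16 to -0.40), which those filters turned to 0.07, and 0 of 7 was called against 8.8%. Klf6 was at 244 CPM in the naïve library, 156 CPM after physical injury and 167 CPM after ischemic injury.

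Radial glial precursors (RGPs) and NG2 microglia had under 20 naïve cells, so only the injured libraries were compared. In RGPs (76 and 438 cells after physical and ischemic injury) Klf6 was at 251 and 156 CPM, with a log2 ratio of -0.68 (-0.87 to -0.48), and Klf2 at 64.9 and 37.7 CPM. Of 8 members 0 was called against 6.29% of all genes. In NG2 microglia (36 and 164 cells), Klf10 was at 113 CPM (87.3 to 144) after physical injury, near its 112 CPM in endothelial cells, and at 59.2 CPM (51.5 to 67.7) after ischemic injury, below its 96.6 CPM there. Klf6 was at 604 and 395 CPM. Of 7 members 0 was called against 9.83%, where the median log2 ratio of the members was -0.61, and that of all genes tested was -0.06. TMM scaling moved these ratios by 0.21 in RGPs and 0.41 in microglia.

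In 2 Tbx18 clusters the naïve and injured cells carried different markers, so these are given without a reading of injured against naïve. In the Tbx18 cluster named microglia (76, 318 and 265 cells), C1qa was at 8.87, 2017 and 1479 CPM and the pericyte gene Vtn at 8421, 22.6 and 2.66 CPM in the naïve, physical and ischemic injury libraries. The naïve cells of that cluster thus carried pericyte and not microglial markers. Between its injured libraries Klf2 was at 955 and 755 CPM, Klf4 at 844 and 720.1 CPM and Klf6 at 1118 and 978 CPM. Of 8 members 0 was called against 1.78% of all genes.

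In the cluster named vascular-genic pericytes (157, 349 and 143 cells) the pericyte list was at 16100.1, 133 and 26.1 CPM (8 of 8, 6 of 8 and 3 of 8 list genes with at least 3 counts). The naïve cells thus carried pericyte markers and the injured cells nearly lacked them. The paper's subclustering of this cluster found smooth muscle cells, microglia and fibroblasts in place of pericytes after both injuries. The injured sums therefore mix cell types, in shares that can differ between the libraries. Between the injured libraries 4 of 8 members were called lower after ischemic injury, against 10.3% of all genes. These were Klf2 at 807 and 319 CPM, with a log2 ratio of -1.34 (-1.49 to -1.18), Klf4 at -1.76 (-1.98 to -1.55), Klf6 at -1.54 (-1.89 to -1.21) and Klf9 at -1.57 (-1.83 to -1.32). For this comparison the median log2 ratio of the members was -1.11, and that of all genes tested was -0.19, while TMM scaling moved all ratios by 0.12. From physical to ischemic injury the immediate early and stress list went from 8647 to 3286 CPM and the fibroblast list from 1264 (6 of 6 genes with at least 3 counts) to 3081 CPM (5 of 6). The share of UMIs in ribosomal protein genes went from 18.9% to 23.6%. The part of these in the result was not tested. Tbx18 fibroblasts after physical injury (116 cells) had Klf2 at 746 CPM (689.7 to 806), Klf4 at 355 CPM (317 to 397) and Klf6 at 352 CPM (313 to 393).

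The naïve matrix joined the naïve cells of both lines in clusters of its own. These are numbered 0 to 13, whereas the paper describes fewer naïve clusters. The numbers are therefore not the paper's and carry no cell type name here. Klf4 was the member that most often differed 2-fold between the lines. In clusters 2, 5 and 8 the count of members called lay near the share of all genes, as given below. All 4992 cells had the same member counts as in the line matrices, so this is the same measurement grouped in another way. In cluster 5 Klf4 was at 104 CPM (87.3 to 122) in the NG2 and 445 CPM (371 to 529) in the Tbx18 line, a log2 ratio of 2.10 (1.75 to 2.46). In cluster 7 it was at 124 and 570.4 CPM, a ratio of 2.21 (1.74 to 2.66). In cluster 8 it was at 167 and 402 CPM, a ratio of 1.27 (0.91 to 1.62), and in cluster 2 at 42.6 and 111 CPM, a ratio of 1.38 (0.81 to 1.93). The Tbx18 line was thus the higher one in these 4 clusters, each with only 27 to 63 Tbx18 cells, and by less than 2-fold in cluster 3 at 0.90 (0.55 to 1.24). In clusters 4 and 10 Klf4 was at -0.15 (-0.30 to 0.00) and 0.55 (0.43 to 0.67). In cluster 0 (967 NG2 and 66 Tbx18 cells) Klf4 was at 0.38, which turned to -0.01 in thinned cells.

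The members called were 1 of 7 in clusters 2, 5 and 8, against 5.55%, 9.75% and 8.75% of all genes higher in the Tbx18 line. Lower there were 499 of 7785, 655 of 7844 and 611 of 7855 genes, so 1 of 7 lies near the share called either way. In cluster 7 the members called were 3 of 8 (Klf4, Klf6 and Klf10) against 16.3%, with 571 of 7960 genes lower. Of these, Klf10 had 3 counts in each line and reached the level for testing only through the Tbx18 cells, and the Klf6 call was lost as a mean over cells (0.97). In clusters 0, 1, 3 and 4 the count was 0 of 7, against 12.9%, 16.6%, 17.3% and 9.78% of all genes, and in cluster 10 it was 0 of 8 against 21.2%. In clusters 5, 7 and 10 the Klf2 ratios were smaller than those of Klf4. They were 0.87 (0.52 to 1.22) in cluster 5, which turned to -0.13 in thinned cells, 0.67 (0.12 to 1.18) in cluster 7, and -0.01 (-0.09 to 0.08) in cluster 10. The pericyte gene Vtn was at 12569 and 7388 CPM in cluster 5 and at 19981 and 10179 CPM in cluster 7 of the NG2 and Tbx18 lines, and Acta2, of smooth muscle, was at 1766 and 1047 CPM in cluster 5. TMM scaling moved the ratios of clusters 1, 3, 4 and 7 by -0.19, -0.16, -0.12 and -0.14. Cluster 6 is not read between the lines, since C1qa was at 3124 CPM in its NG2 and at 4.76 CPM in its Tbx18 cells. The lines differ in the driver, the animals and the library, which cannot be told apart here.

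**Figure D5:**
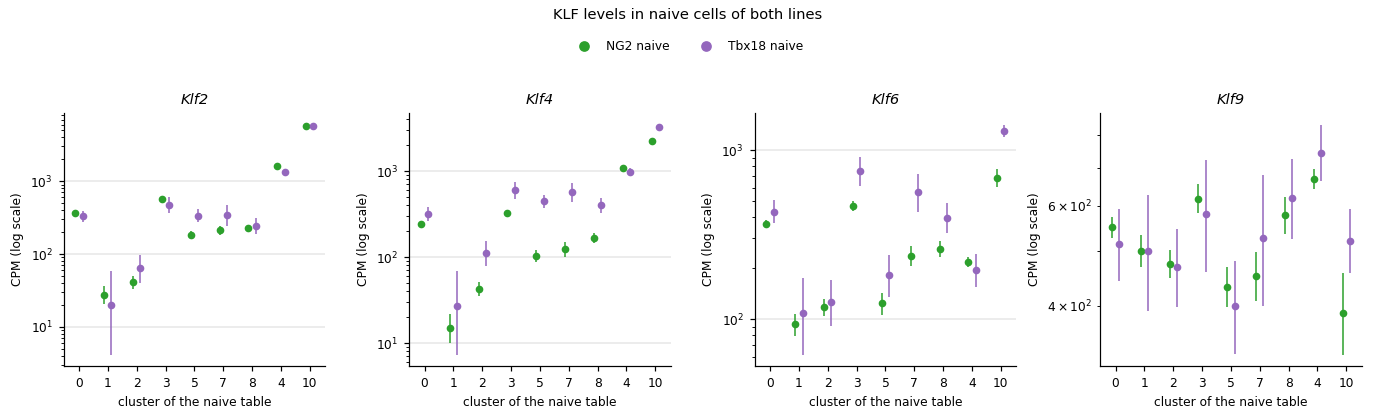
Level (CPM, log axis) of Klf2, Klf4, Klf6 and Klf9 in the clusters of the naïve matrix (horizontal), with 1 point per line and 95% Poisson intervals. Cluster numbers are those of this matrix, not the paper's. Klf4 in cluster 5 is at 445 CPM in the Tbx18 and 103.5 CPM in the NG2 line, while in cluster 4 it is at 983 and 1089.7 CPM.

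Of 18 further KLF and SP genes listed, 15 were in the matrices, and 6 of them were tested in endothelial cells, where 0 of 6 was called in either line after either injury. In NG2 pericytes 0 of 5 was called. Of 12 corepressors and partners of the family, such as the CtBP and Sin3 proteins, 0 was called in endothelial cells or NG2 pericytes. Of all genes, 4.78% and 5.42% (NG2) and 8.17% and 8.14% (Tbx18) were called in endothelial cells after physical and ischemic injury. In NG2 pericytes 12 of 7250 were higher and 22 lower after physical injury, and 0.597% were called after ischemic injury. For lists of this size, counts of 0 lie near these shares. Of the TGF-beta list that goes with Klf10, 0 of 10 and 0 of 11 genes were called in Tbx18 endothelial cells after physical and ischemic injury. These stand against 8.17% and 8.14% of all genes. In Tbx18 canonical pericytes 5 of 12 were higher after physical injury, where 7.54% of all genes were. In NG2 endothelial cells 1 was higher and 1 lower of 12 after physical injury, and 1 higher and 2 lower after ischemic injury, where 4.78% and 5.42% of all genes differed 2-fold. Of 8 muscle phenotype genes, 0 was called in NG2 smooth muscle cells after either injury, against 0.666% and 0.712% of all genes.

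Over the 31 NG2 cluster and library sums of at least 20 cells, the spread of the members differed. Klf2 ranged from 0 to 6214 CPM with a median of 76.9, Klf4 from 14.1 to 2753 with a median of 130, and Klf6 from 49.98 to 908 with a median of 202. The narrowest was Klf7, from 116 to 321 CPM with a median of 212. Klf3 ranged from 28.0 to 202, Klf9 from 8.70 to 706, Klf10 from 0 to 113, and Klf13 from 54.1 to 571 CPM. The high ends lay in endothelial cells for Klf2, Klf3, Klf4, Klf6 and Klf7, in mesenchymal-like pericytes for Klf9, in microglia for Klf10 and in oligodendrocytes for Klf13.

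Pearson correlations of log2(CPM + 1) over these sums, which share libraries, depth and cell types and so are descriptions, were 0.84 between Klf2 and Klf4 in the NG2 and 0.95 in the 16 Tbx18 sums. Klf2 and Klf6 were at 0.74 and 0.53, Klf7 and Klf13 at 0.40 and 0.84, and Klf9 and Klf10 at -0.46 and -0.39. Among 8848 genes of at least 50 CPM somewhere, the 5 most like Klf2 in the NG2 sums were Kctd10 (0.90), Ier2 (0.88), Sertad1 (0.87), Rlim (0.87) and Bnip2 (0.86). Those most like Klf4 were Fosb (0.89), Foxf1 (0.85), Fos (0.84), Klf2 (0.84) and Pdgfd (0.83), with the early response genes Fosb and Fos among them. For Klf3 they were Tek (0.90), Kdr (0.90), She (0.87), Bsg (0.86) and Slc35f2 (0.86), with the endothelial receptors Tek and Kdr in front.

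For Klf6 the nearest genes were Swap70 (0.86), Slc7a1 (0.82), Piezo1 (0.81), Ier5 (0.80) and B4galt5 (0.79). Klf9 had Ctdsp2 (0.93), Fermt2 (0.92), Epas1 (0.91), Gng11 (0.90) and Mosmo (0.90) nearest to it, and Klf7 had Rasgrp3 (0.81), Wasf2 (0.80), Foxp1 (0.80), Mllt6 (0.80) and Mtus1 (0.79). Klf10 had few or 0 counts in many of these sums. For Klf10 the list was Sh3glb1 (0.89), St3gal1 (0.89), Sh3bgrl3 (0.87), Ptp4a2 (0.86) and Slc6a6 (0.86), and for Klf13 Sypl (0.89), Pdxk (0.88), Unc5b (0.88), Wipi1 (0.85) and Slk (0.84).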

How the data were processed

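Per the labels and the study's methods, tdT+ DAPI-negative cortical cells were sorted, prepared with 10x Genomics 3' chemistry and processed by the authors with Cell Ranger (build GRCm38). The submitters' processing notes name version 7.0.0, while the study's methods name a range of versions that ends at 7.0.0. Which library was processed with which version was not stated, and the part of version in differences between libraries was not tested. The deposited values were UMI counts per gene and cell, not normalized, of cells that had passed the authors' filters, with cluster numbers from the authors' Seurat objects and a percent of mitochondrial UMIs per cell computed by the authors, used here only in a filter alternative. The largest deposited percent in any library was between 11.5 and 12.0%.

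UMI counts were summed here per cluster and library in Python 3.11.15 with scipy 1.17.1 and numpy 2.4.6 and divided by all UMIs of the same cells. The code was tested on simulated data. A sum needed 20 cells, and 48 comparisons were made and 14 not. Since each group was 1 library, no p-value was computed and a gene was called by a 2-fold difference. A count of 0 allows a level of up to 3 counts. Shares of cells were compared after thinning to 1000 UMIs. Alternatives were TMM factors (edgeR 4.0.16 in R 4.3.3), thinned cells, mean over cells, a pseudocount of 1 CPM, the methods' filters applied again (at least 200 genes, at most 12% mitochondrial, within 2 SD), mitochondrial and ribosomal protein genes left out, and doublets. Scrublet (scanpy 1.11.5) called 65 of 17033 cells, too few to be used, so the 460 cells with the highest scores (0.8% per 1000 cells) were removed in an alternative only.

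The members, lists, rules and alternatives were chosen with earlier results of these data known. All 8 members were named, and for each the 5 other genes of highest Pearson correlation over the NG2 sums; of each list, the counts of genes tested and called and, where given, its 4 genes of highest CPM, with exceptions stated. RefSeq promoters came from GRCm38.p6.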

Additional observations from a re-analysis of the deposited data

Results flagged for a closer look

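In 5 cases a member stood in opposite order in the NG2 and Tbx18 lines under the same contrast. Both counting intervals then lay on their own side of 0. All tested members were looked at under each contrast in endothelial cells, smooth muscle cells and pericytes, and most did not meet this rule. The share of all genes that meet it was not computed, so the 5 cases are not read as particular to the members. Each line had 1 library per condition, so none of these differences between lines was tested. In pericytes, the log2 ratio of Klf2 after physical injury over naïve was -1.57 in the NG2 and 0.88 in the Tbx18 line. The NG2 pericytes pooled activated and canonical clusters (0, 1 and 2), and the Tbx18 ones were the canonical cluster alone. The Tbx18 ratio was smaller without cells carrying other types' markers. In its thinned cells a Klf2 UMI was seen in 15.7% (naïve) and 16.8% (physical injury). For ischemic over physical injury, which shares the physical injury library with that contrast, Klf2 was at 1.38 in the NG2 and -0.90 in the Tbx18 line. Klf7 in pericytes after physical injury over naïve was at 0.12 in the NG2 and -0.48 in the Tbx18 line. In smooth muscle cells Klf2 after physical injury over naïve was at -0.082 and 0.40, and Klf4 for ischemic over physical injury was at 0.13 and -0.59. The NG2 ratio of Klf2 in smooth muscle cells was 0.00 with the methods' filters applied again.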

How the results depend on the processing

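No paired analysis was possible because each line and condition had 1 library, and for the same reason no library could be left out. Of 52 member ratios past 2-fold, 51 stayed past it with TMM factors, 45 in thinned cells, 52 with the highest doublet scores removed, 48 as a mean over cells, 50 with the methods' filters, 51 with a pseudocount and 52 without mitochondrial and ribosomal protein genes. None reversed past 2-fold. The 52 include comparisons given above without a reading. Injured over naïve, the Tbx18 microglia cluster had 2 members higher and 2 lower after each injury. The vascular-genic cluster had 2 higher and 3 lower after physical and 6 lower after ischemic injury. Naïve cluster 6 had 1 higher and 2 lower, and activated over canonical pericytes 3, 2 and 3 higher. These comparisons were also among those of the 193 ratios that follow. Of 193 ratios whose interval left out 0, 19 changed sign in thinned cells, 4 as a mean over cells, 3 with the filters, 1 with TMM and 1 with doublets removed. Leaving out cells with other types' markers, chosen after seeing the data, changed the sign of 0 of 55, and of 0 of 20 with smooth muscle markers as well. NG2 pericytes gave 12 of these ratios, and there the first filter removed 0 cells, so no sign could change. With smooth muscle markers as well, 3242 of 3243, 1104 of 1106 and 1083 of 1085 of these pericytes were kept, which made a change of sign hardly possible. Over clusters 0, 1 and 2 taken alone, 1, 3 and 1 of 12 pericyte ratios changed sign, and 3, 2 and 3 of 4 calls were kept. The causes were not tested. The following medians of the members' log2 ratios moved by more than their counting intervals. NG2 pericytes of cluster 1 alone gave -0.0950, -0.216 and -0.109 (physical over naïve, ischemic over naïve, ischemic over physical). With TMM, NG2 endothelial cells gave -0.124 (ischemic over naïve) and -0.140 (ischemic over physical), NG2 microglia -0.202, and Tbx18 smooth muscle cells 0.441 (physical over naïve) and -0.906 (ischemic over physical). The Tbx18 microglia cluster gave 1.14 and 0.798 with TMM (physical and ischemic over naïve). These 2 values are not read, since its naïve and injured cells carried different markers. As a mean over cells, NG2 endothelial cells gave -0.104 and -0.0796 (ischemic over naïve and over physical), NG2 microglia -0.233, Tbx18 endothelial cells -0.144, -0.112 and 0.00085 (the 3 contrasts in the order above) and Tbx18 smooth muscle cells -1.12 and -1.20 (ischemic over naïve and over physical). With the filters, oligodendrocytes gave -0.446, -0.399 and 0.0656. In thinned cells, NG2 smooth muscle cells gave -0.206 (ischemic over naïve), oligodendrocytes 0.566 and 0.0591 (ischemic over naïve and over physical), NG2 endothelial cells -0.124 in both, OPCs 0.302, RGPs -0.649 and NG2 microglia -0.239 (ischemic over physical). Tbx18 endothelial cells then gave -0.181 (ischemic over naïve), Tbx18 smooth muscle cells -1.14 and -1.08 (ischemic over naïve and over physical), Tbx18 pericytes -0.383 (physical over naïve), and activated over canonical pericytes 0.217, 0.775 and 0.862 (naïve, physical, ischemic). The median share of all genes called, 8.96% over the comparisons, was 24.99% with no minimum level and 5.45% with a minimum of 50 CPM. Of the listed likeness pairs, 40 had a Pearson correlation above 0.7 in the NG2 sums, 35 by Spearman and 21 in the Tbx18 sums. Depth limits Klf10 in particular, which was at 3.05, 3.55 and 6.47 CPM in NG2 pericytes of the naïve, physical and ischemic injury libraries.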
